A study of Mus musculus with 6 samples.

Results

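The genes described here are the myogenic regulatory factors Myod1, Myog, Myf5 and Myf6, the satellite cell genes Pax7 and Cdh15, and Mef2a, Mef2c and Mef2d of the Mef2 family. A list of 10 named genes was matched by symbol to the TPM tables, which hold a level scaled for transcript length and library size, and joined by gene identifier to the raw count table. The match found 9 of the 10 genes, out of 16800 genes in the TPM tables and 45777 in the count table, and all 9 passed the filter on low counts that left 16188 genes for testing. Mymk, which encodes the fusion protein myomaker, was absent from the TPM tables and was skipped. Its raw counts were 19, 22 and 10 in the vehicle libraries and 11, 0 and 0 in the BML-260 libraries.

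RNA-Seq was carried out on the tibialis anterior (TA) muscle of male C57BL/6J mice, with 3 mice given vehicle and 3 given BML-260, 1 library per mouse. BML-260 is the small molecule that the study uses to inhibit the phosphatase DUSP22, and it was injected daily into the peritoneum at 5 mg/kg for 1 month, beside a vehicle based on DMSO. The labels give an age of 24 months for both groups, and the study's own text gives somewhat older ages. There was no young group and no genetic change in either group, so each difference below is between drug-treated and vehicle-treated old mice.

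Myogenic regulatory factors (MRFs) are basic helix-loop-helix transcription factors that pair with E proteins and bind short DNA sites called E-boxes. Pax7 marks satellite cells, the resident stem cells of muscle. Myf5 and Myod1 act when these cells commit to the muscle fate, Myog acts when they differentiate, and Myf6 (also called MRF4) is the MRF best known from mature fibers. Mef2 proteins bind A/T-rich sites beside E-boxes and act together with the MRFs. In adult fibers Myog is also known for its rise after loss of the nerve, when it drives genes of the acetylcholine receptor.

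Myog had the largest difference among these genes. Its promoter is shown for this, and because it holds both kinds of site close together, the Mef2-like one only by a loosened motif. Beside it stand the promoters of Chrna1 and Musk, known targets of Myog at the synapse that were also lower with BML-260, chosen after their values were seen. Each sequence is 300 bases from RefSeq (GRCm38.p6), 250 before and 50 after the start of the transcript, read in the direction of the gene. Capitals mark an E-box (CANNTG, which reads as CANNTG on both strands) or a Mef2-like site (CTANNNNTA on either strand), and no 2 of the marked sites overlap.
Myog (chr1:134289754-134290053, plus strand): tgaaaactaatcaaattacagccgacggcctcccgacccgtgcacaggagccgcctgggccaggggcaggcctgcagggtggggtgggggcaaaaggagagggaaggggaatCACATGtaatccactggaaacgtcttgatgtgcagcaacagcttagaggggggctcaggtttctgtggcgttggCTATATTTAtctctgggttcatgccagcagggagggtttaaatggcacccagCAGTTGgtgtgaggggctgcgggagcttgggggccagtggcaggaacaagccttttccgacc
Chrna1 (chr2:73580289-73580588, minus strand): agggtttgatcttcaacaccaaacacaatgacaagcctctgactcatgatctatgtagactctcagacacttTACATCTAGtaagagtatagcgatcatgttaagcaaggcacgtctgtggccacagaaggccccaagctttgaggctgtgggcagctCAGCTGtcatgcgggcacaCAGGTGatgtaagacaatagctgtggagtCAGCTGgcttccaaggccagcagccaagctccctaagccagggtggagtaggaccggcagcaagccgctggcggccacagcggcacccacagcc
Musk (chr4:58285712-58286011, plus strand): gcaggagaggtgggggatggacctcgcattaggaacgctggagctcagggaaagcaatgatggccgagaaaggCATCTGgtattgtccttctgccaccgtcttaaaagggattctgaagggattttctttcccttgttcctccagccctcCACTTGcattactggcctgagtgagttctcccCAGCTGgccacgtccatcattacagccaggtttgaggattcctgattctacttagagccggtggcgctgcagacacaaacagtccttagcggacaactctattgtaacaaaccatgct
In the Myog promoter, E-boxes lay 138 and 12 bases before the start (CACATG and CAGTTG), and the Mef2-like site CTATATTTA lay 64 bases before it. In Chrna1, 3 E-boxes lay at 92, 73 and 44 bases before the start, and the Mef2-like site TACATCTAG lay 178 bases before it. The 3 E-boxes of Musk were farther out, at 177, 100 and 68 bases. Such matches are common: an E-box was found in 72.3% of the 32851 promoters of the same length, and 3 or more in 17.6%. The Mef2-like letters were found in 21.0%, and both kinds of site in 15.7%. Promoters were found for 7 of the 9 genes, with Myod1 and Myf6 missing. Of these 7 genes, Myog, Cdh15 and Mef2c held an E-box in a promoter, and Myog, Myf5, Mef2a and Mef2c held the Mef2-like letters.

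The levels of the 9 genes spanned a wide range in vehicle-treated TA muscle. On the TPM scale, which is scaled for transcript length so that genes can be compared, Myf6 was at 202 ± 115 (SD, n = 3) and Mef2c at 158 ± 9.82, and their ranges overlapped. Mef2a followed at 58.1 ± 8.65 and Mef2d at 33.4 ± 4.39, each without overlap with its neighbours. Myod1 (22.5 ± 3.75), Myog (20.7 ± 20.0) and Cdh15 (13.3 ± 9.37) overlapped in level. Myf5 (0.749 ± 0.473) and Pax7 (0.361 ± 0.138) were lowest and overlapped each other, well below the other 7 genes.

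With BML-260 the order differed at the top and in the middle. Mef2c was first at 179 ± 20.3 TPM (SD, n = 3) and Myf6 second at 74.0 ± 7.54, without overlap. Myog, at 4.49 ± 1.92 TPM, stood below Cdh15, at 9.57 ± 2.27, also without overlap. In the vehicle group Myf6 exceeded Mef2c in replicate 3 alone, where the TPM values were 334 and 148.

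**Figure D1:**
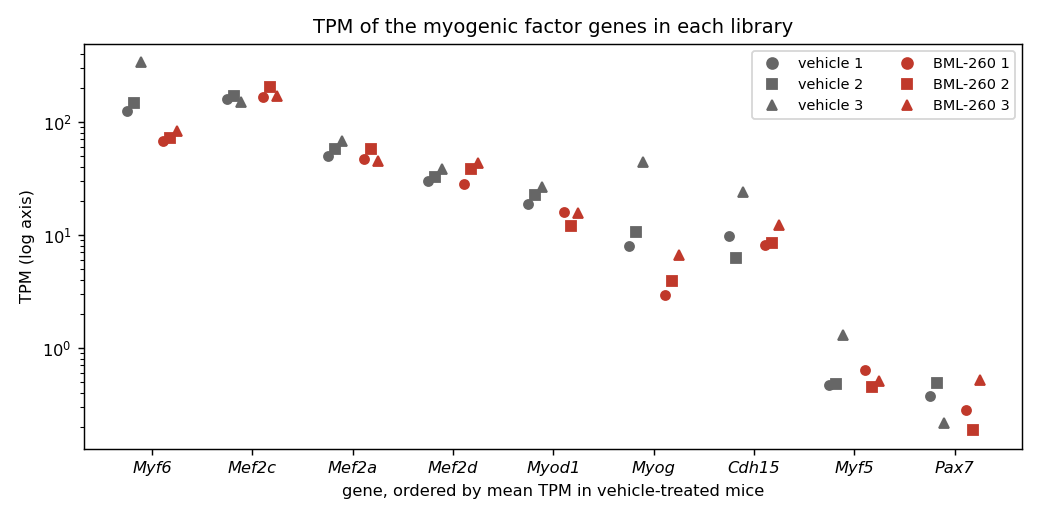
TPM (log axis) of the 9 genes in each TA library, ordered by their mean in vehicle-treated mice, with grey symbols for vehicle and red symbols for BML-260. The grey symbols of Myf6, Myog and Myod1 lie above all their red ones, and vehicle replicate 3 (grey triangle) is highest for each, at 334, 43.8 and 26.3 TPM.

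Myf6 made up most of the MRF transcripts in every library. Its share of the summed TPM of Myod1, Myog, Myf5 and Myf6 was 82.0% ± 0.474 (SD, n = 3) with vehicle and 79.2% ± 2.05 with BML-260. Myod1 held 10.4% ± 3.40 and 15.5% ± 2.44, and Myog 7.27% ± 3.06 and 4.70% ± 1.50. The summed MRF level was 152, 180.0 and 406 TPM in the vehicle libraries and 87.0, 88.6 and 105 TPM in the BML-260 libraries. The groups did not overlap in this sum, and the highest value was again that of vehicle replicate 3. For the 3 Mef2 genes the sums were 239, 257 and 253 TPM against 241, 298 and 257 TPM, which overlapped. TPM is not normalized between libraries as the counts were, which limits the reading of both the MRF and the Mef2 sums. For Mef2d, vehicle replicate 3 had the highest TPM of the vehicle group (38.2) but the lowest normalized count of all libraries (4255). Mef2c made up 63.4% ± 4.42 of the Mef2 sum with vehicle and 67.5% ± 1.60 with BML-260.

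The libraries held between 39522890 and 56998875 counts. Vehicle replicate 3 stood apart from the other libraries: its TMM factor was 1.20, against 0.914 to 1.02 for the others. It was the highest library for 4 of the 9 genes and the lowest for 3 of them. Over all tested genes it was the highest library for 31.8% and the lowest for 31.7%. Values without vehicle replicate 3 are therefore given beside many of the results below.

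BML-260 was compared with vehicle by edgeR's quasi-likelihood test over all 16188 genes. Each log2 fold change sets BML-260 against vehicle, with negative values where BML-260 was lower. A gene is called lower or higher where its fold reaches 1.3 and its unadjusted p is under 0.05, the threshold printed with the study's volcano plot. At that threshold 3 of the 9 genes were lower with BML-260, namely Myog, Myf6 and Myod1, and 0 were higher, where 4.86% of all tested genes were called lower and 0.896% higher. The same 3 genes were those whose normalized counts did not overlap between the groups, and over all tested genes 6.75% were lower without overlap. None of the 9 reached an adjusted p under 0.05 in edgeR, as for 0.0% of all genes, and 3 had an unadjusted p under 0.05, where 5.97% of all genes did. By DESeq2, 2 of them (Myf6 and Myog) had an adjusted p under 0.05, where 0.557% of all genes did so with lower expression. The p-values measure the spread between these libraries, each from its own mouse.

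The median log2 fold change of the 9 genes was -0.20, beside -0.0039 over all tested genes. Without vehicle replicate 3 it was -0.095, and the same 3 genes were called lower, where 2.92% of all genes were. The 3 called genes are all MRFs, the satellite cell genes and Myf5 had wide intervals around 0, and Mef2c and Mef2d had positive differences that were not called.

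**Figure D2:**
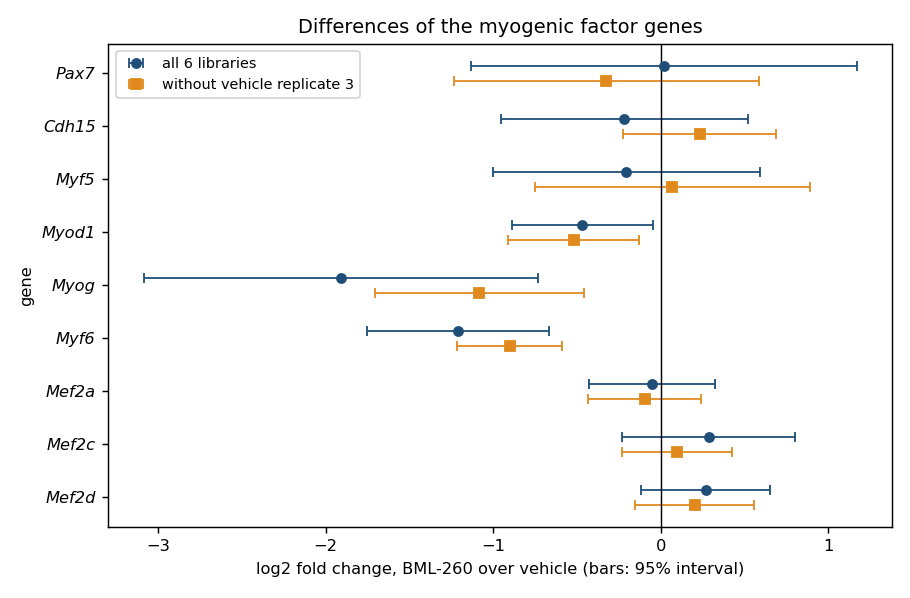
Log2 fold change of each gene, BML-260 over vehicle, from edgeR with all 6 libraries (circles) and without vehicle replicate 3 (squares), with 95% intervals as bars. The intervals of Myod1, Myog and Myf6 stay below 0 in both fits, and those of the other 6 genes span 0.

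Pax7, the transcription factor that defines satellite cells, did not separate the groups. Its normalized counts (counts divided by DESeq2's size factors) were 58.0, 81.7 and 26.8 with vehicle and 52.6, 30.9 and 84.7 with BML-260. The lowest value was that of vehicle replicate 3 and the highest that of BML-260 replicate 3. The log2 fold change was 0.018 (SE 0.50, adjusted p = 0.99 in edgeR), with a 95% interval from -1.13 to 1.17. Only 31 to 69 raw counts per library lay behind these values, and the interval does not exclude a change of 2-fold in either direction. Without vehicle replicate 3 the value was -0.32.

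Myf5, the MRF of early commitment, was also low in whole muscle, with 31 to 83 raw counts per library. Its normalized counts were 37.1, 39.6 and 61.8 with vehicle and 46.6, 34.9 and 39.3 with BML-260. The groups overlapped, and the highest library was vehicle replicate 3. The log2 fold change was -0.20 (SE 0.35, adjusted p = 0.88 in edgeR), with a 95% interval from -1.003 to 0.59, and it was 0.070 without vehicle replicate 3.

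Cdh15 encodes M-cadherin, an adhesion protein of satellite cells and myoblasts. Normalized counts of Cdh15 were 783, 531 and 1386 with vehicle and 709, 664 and 959.9 with BML-260. The vehicle group held both the lowest and the highest library. The log2 fold change was -0.22 (SE 0.32, adjusted p = 0.87 in edgeR), and without vehicle replicate 3 the sign turned to 0.23 (SE 0.21).

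Myod1 (gene ID 17927, chr7:46376474-46379092, mm10), which commits cells to the muscle fate, was lower with BML-260 by a modest amount. Its normalized counts were 984, 1235 and 992 with vehicle and 916, 614 and 794 with BML-260. All BML-260 libraries were below all vehicle libraries, although BML-260 replicate 1 and vehicle replicate 1 lay close together. Expression was 1.38-fold lower with BML-260 (log2 fold change -0.47, SE 0.18, 95% interval -0.89 to -0.046). The unadjusted p was 0.0336 and the adjusted p 0.79 in edgeR, and DESeq2 gave an adjusted p of 0.68. This call was the least stable of the 3: it was lost without vehicle replicate 2 (-0.35), without BML-260 replicate 2 (-0.32) and without BML-260 replicate 3 (-0.49). Vehicle replicate 3 did not make the call, since the value without it was -0.52 (SE 0.18).

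Myog (gene ID 17928, chr1:134290004-134292548), the differentiation factor myogenin, had the largest difference of the 9 genes. Normalized counts of Myog were 330.1, 465 and 1318 with vehicle and 135, 159 and 273 with BML-260. The highest BML-260 library stood below the lowest vehicle library, and vehicle replicate 3 stood far above the other vehicle libraries. Expression was 3.75-fold lower with BML-260 (log2 fold change -1.91, SE 0.51, 95% interval -3.08 to -0.73). The unadjusted p was 0.00542 and the adjusted p 0.65 in edgeR, and the adjusted p of DESeq2 was 0.0144. Without vehicle replicate 3 the size dropped to 2.12-fold lower (log2 fold change -1.08, SE 0.28), with an unadjusted p of 0.00283 and an adjusted p of 0.39 in edgeR. When another library was left out instead, the value lay between -2.26 and -1.71.

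Myf6 (gene ID 17878, chr10:107492848-107494723) lies 5.92 kb from Myf5 and was the clearest of the differences. Its normalized counts were 4428, 5486 and 8526 with vehicle and 2629, 2488 and 2860.1 with BML-260. The BML-260 libraries lay within a narrow range (coefficient of variation 7.06%), below every vehicle library, and the vehicle libraries were spread more widely (34.6%). Expression was 2.31-fold lower with BML-260 (log2 fold change -1.21, SE 0.24, 95% interval -1.75 to -0.67). The unadjusted p was 0.000797, rank 20 among all 16188 genes, the adjusted p was 0.55 in edgeR, and that of DESeq2 was 0.0017. Without vehicle replicate 3 the difference was smaller and its error smaller still: 1.87-fold lower (log2 fold change -0.90, SE 0.14), with an adjusted p of 0.061 in edgeR. Although Myf5 is the neighbour of Myf6, its value was not called in any of the 16 alternatives, whereas Myf6 was called in all 16.

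**Figure D3:**
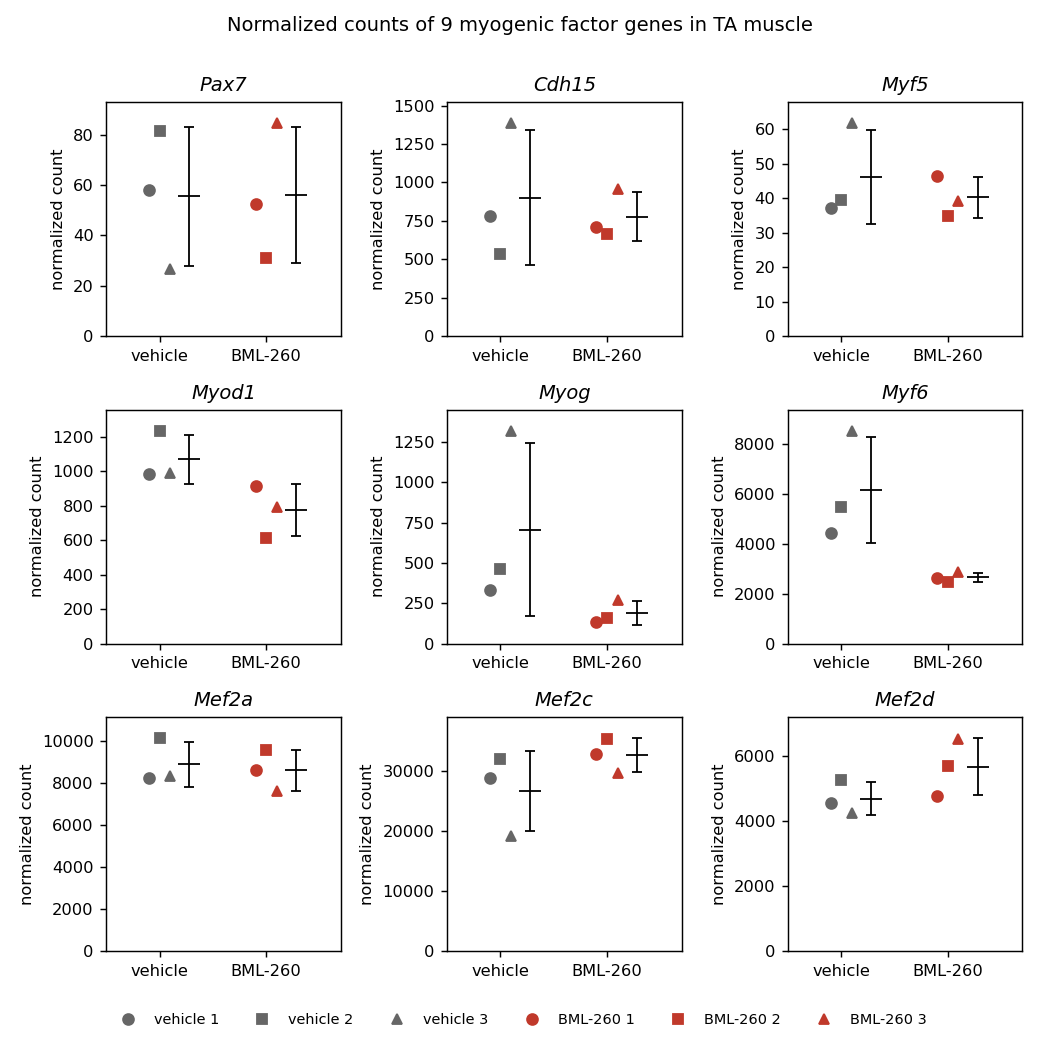
Normalized counts (counts divided by size factors) of the 9 genes in each library, with a symbol per mouse and the group mean and SD as a bar beside the symbols, on axes that start at 0. For Myod1, Myog and Myf6 the red BML-260 symbols all lie below the grey vehicle symbols, and for the other 6 genes the groups overlap.

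None of the 3 Mef2 genes was called in either direction. Mef2a had normalized counts of 8228, 10122 and 8328 with vehicle and 8629, 9577 and 7620.5 with BML-260. The groups overlapped almost entirely, and the log2 fold change was -0.050 (SE 0.16, adjusted p = 0.94 in edgeR) with a 95% interval from -0.43 to 0.33.

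Mef2c, the most abundant Mef2 gene in this muscle, had normalized counts of 28849, 32003 and 19224 with vehicle. With BML-260 they were 32862, 35315.5 and 29754. The lowest library was vehicle replicate 3, and BML-260 replicate 3 lay between the other vehicle libraries. The log2 fold change was 0.29 (SE 0.23, adjusted p = 0.80 in edgeR) with a 95% interval from -0.23 to 0.81, and 0.098 (SE 0.15) without vehicle replicate 3. RefSeq lists 34 transcripts of Mef2c, and the counts per gene do not separate them.

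Mef2d had normalized counts of 4576, 5261 and 4255 with vehicle and 4789, 5698 and 6541 with BML-260. BML-260 replicate 1 lay within the vehicle range and the other treated libraries above it. The log2 fold change was 0.27 (SE 0.17, adjusted p = 0.79 in edgeR) with a 95% interval from -0.12 to 0.66.

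Cells other than fibers also contribute RNA to whole muscle, and their markers were read in the same libraries. Over all tested genes 4.86% were called lower and 0.896% higher, and 2.92% were called lower without vehicle replicate 3. The 9 markers of muscle fibers (Acta1, Ckm, Mb, Myh4, Myh1, Myh2, Tnnt3, Pvalb and Ttn) were abundant in every library, as the label of muscle implies, and summed to between 74143 and 93086 TPM with vehicle and between 85542 and 104023 TPM with BML-260, with 0 of 9 called. Among the macrophage markers 6 of 7 were called lower, and the other, Cd68, had a log2 fold change of 0.0018. The 7 markers summed to between 124 and 519 TPM with vehicle and between 76.2 and 94.6 TPM with BML-260. All 4 neutrophil markers were called lower, and the 3 of them in the TPM tables summed to between 23.5 and 799 TPM with vehicle and between 6.62 and 11.6 TPM with BML-260. Without vehicle replicate 3 the calls were again 6 of 7 and 4 of 4. Among the erythroid markers 3 of 5 were called lower, and 2 of 5 without vehicle replicate 3. Endothelial, smooth muscle and pericyte, adipocyte and Schwann cell markers had 0 calls, with 2 Schwann cell markers called higher without vehicle replicate 3. The median log2 fold change of the adipocyte markers was -1.19, and 0.21 without vehicle replicate 3. That of the Schwann cell markers was -0.29, and 0.68 without it. Of the 6 fibroblast markers, 1 (Col1a1) was called lower. The 5 lymphocyte markers were too low to be tested. Retnlg, a neutrophil gene, had 0 counts in BML-260 replicates 1 and 2, and no tested marker was at 0 in every library. The part of these cells in the MRF differences was not tested. In bulk tissue, fewer cells of a type and less RNA per cell cannot be told apart.

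**Figure D4:**
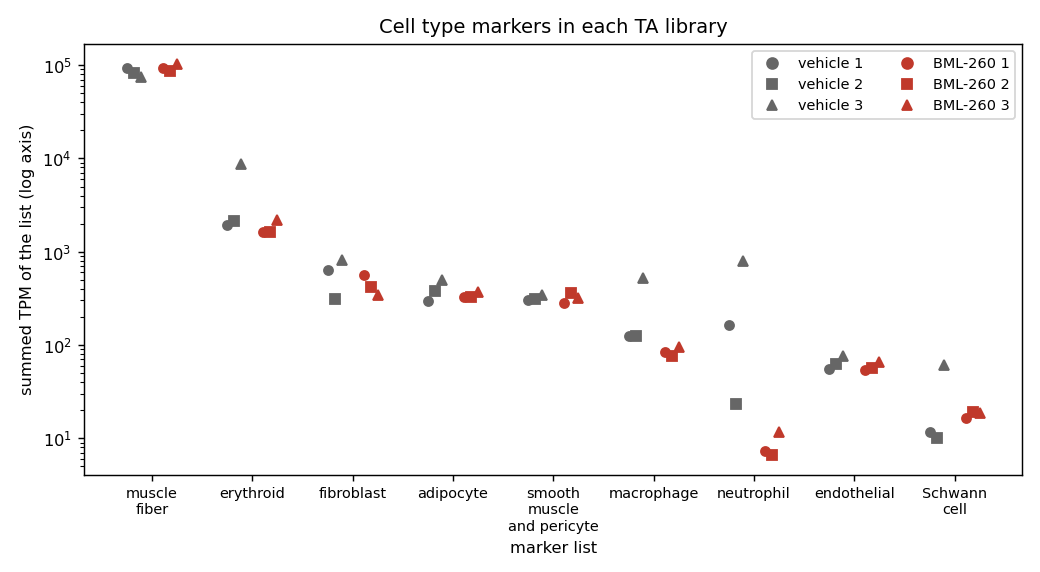
Summed TPM (log axis) of the markers of each cell type in each library, with 3 of the 4 neutrophil markers in the sum. The fiber sums of the groups overlap, and the macrophage and neutrophil sums of the BML-260 libraries (red) lie below every vehicle library (grey). Vehicle replicate 3 (grey triangle) is highest for 7 of the 9 lists on the TPM scale, which is not normalized between libraries as the counts are. By normalized counts it was highest for 7 of 7 macrophage and 4 of 4 neutrophil markers. Of the 6 fibroblast markers it was highest for 3, and of the 5 endothelial markers it was highest for 2 and lowest for 3.

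The genes that act with the MRFs and Mef2 were read from 9 lists. The count of calls in each list is to be read beside all tested genes, where 4.86% were called lower and 0.896% higher. With a library left out, the calls over all genes ran from 503 of 16767 (without BML-260 replicate 2) to 2223 of 16719 (without vehicle replicate 1). Among the 18 satellite cell genes other than Pax7 and Cdh15, 2 were called lower, 0 were called higher and the median log2 fold change was -0.037. Vcam1, an adhesion molecule, had normalized counts of 357, 336 and 323 against 256, 256 and 212, without overlap, and a log2 fold change of -0.49 (SE 0.16). Sdc4, a syndecan, was lower by a log2 fold change of -0.82 (SE 0.31), and it was not called without vehicle replicate 3 (-0.30) or without any 1 of the BML-260 libraries (-0.86 to -0.78). Vcam1 lost its call without BML-260 replicate 3, at -0.40. Pax3 (0.81, SE 0.54, and 0.41 without vehicle replicate 3) and Chrdl2 (-0.61, SE 0.40) were not called. These 2 of 18 calls stand beside the 4.86% of all genes called lower, and with a library left out they numbered 0 to 2.

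Of the 6 tested proliferation genes, 2 were called lower and the median was -1.95, which moved to -0.87 with 1 call when vehicle replicate 3 was left out. Mki67, the marker of cycling cells, had normalized counts of 85.6, 194 and 919 with vehicle and 92.3, 30.9 and 97.0 with BML-260. Those groups overlapped, and vehicle replicate 3 was far above the rest. Mki67 had a log2 fold change of -2.45 (SE 0.83) with all libraries and -0.92 without that one, which was not called, nor was it without BML-260 replicate 2 (-2.08). Top2a, a topoisomerase of dividing cells, was at -2.11 (SE 0.65) and at -1.09, still called, without it. Ccna2 (-1.99, SE 0.99) and Cdk1 (-1.91, SE 0.90) were not called, and stood at -0.82 and -1.38 without vehicle replicate 3. The remaining tested genes, Pcna (-0.21, SE 0.17) and Mcm2 (0.24, SE 0.17), lay nearer 0, with Mcm2 positive, and were not called. Ccnb1 and Birc5 did not pass the filter on low counts.

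The E proteins that pair with the MRFs (Tcf3, Tcf4 and Tcf12) had 0 of 3 called, with log2 fold changes between -0.24 and 0.13. Of the 12 inhibitors of MRFs, 1 was called lower and 0 higher, with a median of -0.42 that came to -0.20 without vehicle replicate 3. With a library left out, 1 to 3 were called. That gene was Id2, which binds E proteins and keeps them from the MRFs. Id2 had normalized counts of 168, 381 and 223 with vehicle and 106, 84.8 and 88.4 with BML-260, so that it was lower in all treated mice. For Id2 the log2 fold change was -1.46 (SE 0.32), the adjusted p was 0.58 in edgeR and 0.0103 in DESeq2, and the value without vehicle replicate 3 was -1.55. The related Id1 (-0.50, SE 0.28) and Id3 (-0.35, SE 0.19), and the Notch effector Hes1 (-0.63, SE 0.29, and -0.28 without vehicle replicate 3), were not called.

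Among the 15 tested regulators and partners of Mef2, 1 was called higher and 1 lower, and the median was 0.055 (-0.074 without vehicle replicate 3). Both calls were fragile: 0 of the 15 were called without vehicle replicate 2, BML-260 replicate 1 or BML-260 replicate 2, and 4 without vehicle replicate 1. Over all tested genes, 2223 of 16719 were called without vehicle replicate 1 and 1207 of 16719 without vehicle replicate 2. Without BML-260 replicate 1 and replicate 2 these calls were 702 of 16738 and 503 of 16767. Camk2g, a calcium/calmodulin-dependent kinase, had normalized counts of 7207, 5995 and 3516 with vehicle and 7965, 8955 and 9269 with BML-260, without overlap. It was higher by a log2 fold change of 0.64 (SE 0.25), and by 0.40, still called, without vehicle replicate 3. The call of Camk2g was lost without vehicle replicate 2 (0.70) and without each BML-260 library (0.60 to 0.70). Vgll2, a cofactor of Mef2 and TEAD proteins, was at -0.50 (SE 0.20), and was not called without vehicle replicate 2 (-0.45), vehicle replicate 3 (-0.34), BML-260 replicate 1 (-0.50) or BML-260 replicate 2 (-0.42). Camk2a (0.64, SE 0.36) and Prkd1 (-0.40, SE 0.24) were not called, and stood at 0.28 and -0.23 without vehicle replicate 3. Mef2b, the fourth Mef2 gene, had 0 counts in every library. Of the 12 Mef2 target genes 1 was called lower, Lmod2 (-1.29, SE 0.55), a leiomodin of the thin filament. Its value was -0.31, not called, without vehicle replicate 3, and the call was also lost without any 1 of the BML-260 libraries (-1.46 to -1.06). Jph2 (0.75, SE 0.36), Klf4 (-0.42, SE 0.26) and Klf2 (-0.38, SE 0.24) were not called. Leaving out vehicle replicate 3 put Jph2 at 0.44 and Klf4 at -0.056. The median of the target list was 0.039.

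The 7 synaptic genes known as targets of Myog had 3 genes called lower, 0 called higher and a median of -0.76. By sign alone 5 were lower and 2 higher, with values up to 0.24. Without vehicle replicate 2 the median was -0.36 with 2 calls, and without vehicle replicate 3 it was -0.52 with 4. The calls ranged from 2 (also without BML-260 replicate 1) to 5 (without vehicle replicate 1). Over all tested genes, 702 of 16738 and 2223 of 16719 were called in these 2 fits. Chrna1, the alpha subunit of the acetylcholine receptor, had normalized counts of 645, 1688 and 1088 with vehicle and 369.9, 403 and 438 with BML-260. No libraries overlapped, and vehicle replicate 2 rather than replicate 3 was the highest. Chrna1 had a log2 fold change of -1.50 (SE 0.31, adjusted p = 0.55 in edgeR and 0.0023 in DESeq2), -1.53 without vehicle replicate 3 and -1.11 without vehicle replicate 2, and it was called with each library left out. Musk, the receptor kinase of the synapse, was lower by a log2 fold change of -0.76 (SE 0.22), and Chrnb1, the beta subunit, by -0.51 (SE 0.18), both without overlap. Musk kept its call with each library left out. Chrnb1 lost it without vehicle replicate 2 (-0.36), BML-260 replicate 1 (-0.46) or BML-260 replicate 2 (-0.52). Chrnd, the delta subunit, was at -1.20 (SE 0.54) and was not called, with values from -1.54 to -0.31 when a library was left out.

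Of the 8 genes of embryonic and regenerating fibers, 3 were called lower, 0 were called higher, and the median was -0.47. By sign alone 6 were lower and 2 higher, with values up to 0.47. Myh3, the embryonic myosin heavy chain, had normalized counts of 675.5, 1381 and 2105 with vehicle and 573, 245 and 499.6 with BML-260, without overlap. Myh3 had a log2 fold change of -1.66 (SE 0.43, adjusted p = 0.63 in edgeR and 0.0139 in DESeq2) and -1.22 without vehicle replicate 3. Ncam1 (-1.34, SE 0.42), an adhesion molecule known from regenerating and denervated fibers, and Tnnt2 (-1.34, SE 0.47), the cardiac troponin T, were also called lower. For both of these the groups overlapped. Myl4 (-0.73, SE 0.37) was not called. Ncam1 was at -0.80, still called, without vehicle replicate 2. Tnnt2 lost its call without vehicle replicate 3 (-0.89), BML-260 replicate 1 (-1.18) or BML-260 replicate 2 (-1.36). Myl4 was at -0.17 without vehicle replicate 3, and 2 to 4 genes of the list were called with a library left out. In the fusion list 0 of the 9 tested genes were called and the median was -0.017. Its members with the smallest p were Dock5 (-0.60, SE 0.27), Elmo1 (-0.47, SE 0.30), Dock1 (-0.28, SE 0.18) and Cd9 (-0.32, SE 0.35). Leaving out vehicle replicate 3 gave values of -0.28, -0.044, -0.089 and 0.23, so that the sign of Cd9 turned.

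**Figure D5:**
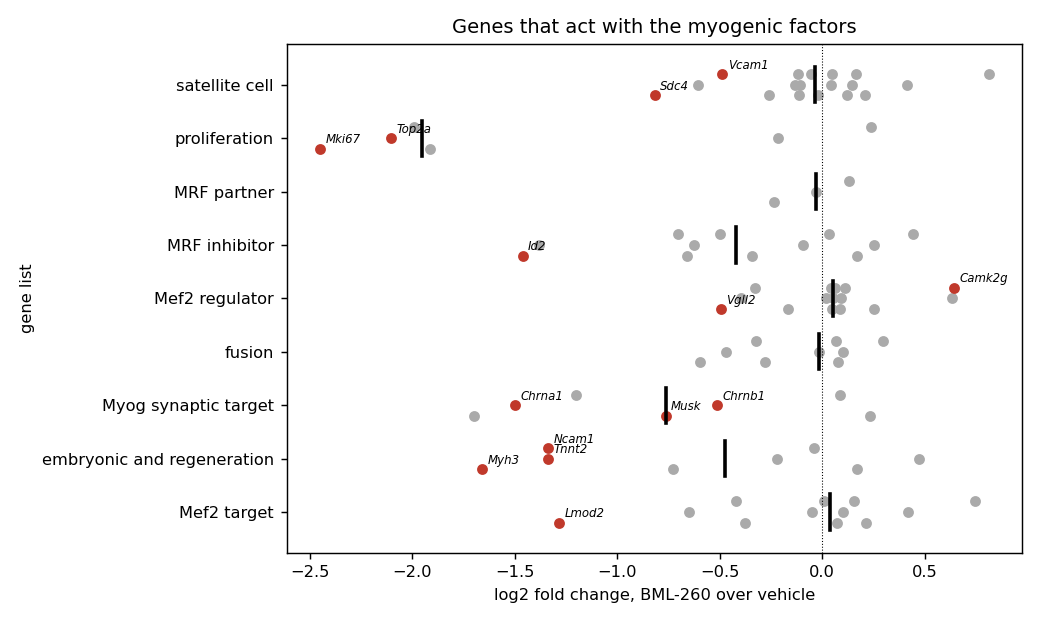
Log2 fold change (BML-260 over vehicle) of each tested gene in 9 lists of genes that act with the myogenic factors, with called genes in red, the others in grey and the median of each list as a black line. The medians of the satellite cell, E protein (MRF partner), Mef2 regulator, fusion and Mef2 target lists lie between -0.037 and 0.055, and the other 4 lists lie below, from -1.95 to -0.42.

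The pattern over the libraries differed between the genes. Over the 6 libraries, Pearson's r of log2 CPM (counts scaled to library size) was 0.96 for Myog and Myf6, 0.54 for Myog and Myod1, and -0.89 for Myog and Mef2c. These are descriptions over libraries of 2 groups, in which vehicle replicate 3 carries much of the spread. The tested genes most like Myog were Ttc9 (r = 0.997), Sik1 (0.997) and Gm41885 (0.996), and 154 genes had an r over 0.95. Those most like Pax7 were Adgrf5 (0.992), Ltbp4 (0.991) and Sipa1l3 (0.987), with 32 genes over 0.95. Zfp974 (0.999), Mrpl3 (0.998) and Slc41a1 (0.997) were most like Mef2c, and 523 genes passed 0.95.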

How the data were processed

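Total RNA libraries were made with a stranded kit from TA muscle. According to the submitters' processing notes, reads were trimmed with Trimmomatic 0.38, and HISAT2 2.1.0, StringTie 2.1.3b, Bowtie2 2.3.4.1 and the build mm10 were used. The rules for strand and for shared reads are not given in the sources used here. The authors deposited raw counts per gene for all 6 libraries, without normalization, and TPM per library, which is scaled for length and depth.

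Tests were run on the counts with edgeR 4.0.16 in R 4.3.3 (filterByExpr, TMM, quasi-likelihood F-test, Benjamini-Hochberg adjustment over 16188 genes). The SE was the log2 fold change divided by the square root of F. Alternatives used DESeq2 1.42.0, limma 3.58.1, other normalizations and filters, a replicate block, and each library left out. Gene positions are those of RefSeq GRCm38.p6, which matched 45679 identifiers. Scripts were tested on simulated data.

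The members, lists and tests were chosen with earlier results of these data known. The genes named from each list are the up to 4 with the smallest p, and those most like Myog, Pax7 and Mef2c the 3 with the highest r. Other names were chosen after values were seen. The Mef2-like motif was chosen after a stricter one, found in 3.19% of promoters, had been tried. The Mef2-like site marked in Myog does not match the stricter one.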

Additional observations from a re-analysis of the deposited data

How the results depend on the processing

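Myog and Myf6 kept their direction and their call in all 16 alternatives, and Myod1 in 12. Their adjusted p ranged over the alternatives from 0.0144 to 0.98 for Myog, from 0.0017 to 0.98 for Myf6 and from 0.35 to 0.98 for Myod1. The number of the 9 genes called was 3, and 2 to 3 with each library left out. With an adjusted p under 0.05 it was 0 in edgeR and 0 with each library left out, and 2 by DESeq2. The median of the 9 genes was -0.20 and lay between -0.39 (without BML-260 replicate 3) and -0.095 (without vehicle replicate 3). Calls over the 9 pathway lists numbered 14, and 8 to 24 with a library left out: 24 without vehicle replicate 1, and 8 without BML-260 replicate 1 or 2. The calls over all tested genes moved the same way in these fits. They were 2223 of 16719 without vehicle replicate 1, 702 of 16738 without BML-260 replicate 1 and 503 of 16767 without BML-260 replicate 2. With all libraries, 4.86% of all tested genes were called lower and 0.896% higher. The sign turned for genes with no call. Cdh15 was at 0.23 without vehicle replicate 3 and 0.17 with limma's quality weights. Myf5 was at 0.070 and 0.0056 in the same fits, and reached -0.34 without vehicle replicate 1. Pax7, at 0.018 with all libraries, kept its sign without vehicle replicate 2, at 0.40. It turned to -0.32 without vehicle replicate 3, -0.40 without BML-260 replicate 3 and -0.30 with quality weights. On log2(TPM + 1) Pax7 was at -0.037, and on log2(TPM + 0.1) at -0.13. Mef2a was at 0.053 without vehicle replicate 2 and 0.031 without BML-260 replicate 3. The cause was not tested. On the TPM scales the median of all genes was -0.098 and -0.14. Over all genes 931 were called, against 2223 without vehicle replicate 1, 503 without BML-260 replicate 2, 503 on log2(TPM + 1) and 1416 with no filter on low counts. Same-numbered libraries shared little: the correlations of their deviations were 0.162, 0.0541 and 0.11, although each library correlated best with its own number. With the replicate block as a term, 1057 genes were called over all genes and 17 in the pathway lists. The values under the block were -1.71 for Myog, -1.16 for Myf6 and -0.48 for Myod1, whose unadjusted p was 0.0556 with edgeR, which left 2 of the 9 called. Pax7 and Myf5 rest on 31 to 83 counts per library, and the coefficient of variation of Pax7 was 49.6% with vehicle and 48.3% with BML-260.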
